A study of Mus musculus with 6 samples.

Results

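Nodal, Lefty2 and Foxh1 are the ligand, the secreted inhibitor and the DNA-binding partner of one signalling pathway of the early embryo, and all 3 were lower in mouse embryonic stem cell derivatives grown in a static magnetic field. They were taken by gene name from a table of 2031 genes, in which each of the 3 names has 1 row. Nodal is a secreted protein of the TGF-beta family that signals through activin receptors and an EGF-CFC co-receptor, which lead to phosphorylation of SMAD2 and SMAD3. These SMADs enter the nucleus with SMAD4 and act at many targets together with FOXH1, a forkhead factor. Among the targets are Nodal itself and the Lefty genes, whose products block Nodal signalling, so that the pathway holds both a positive and a negative loop. In the mouse embryo it is known for keeping the epiblast from premature neural differentiation, for forming mesoderm and endoderm, and for setting the left side of the body.

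RNA was sequenced from J1 cells, a mouse embryonic stem cell line of strain 129S4/SvJae, after induction towards heart muscle as embryoid bodies that formed over 3 days in hanging drops. Cells of the 3 control libraries (NC) had grown in a conventional incubator, and those of the 3 exposed libraries (MF) in one that applied a static magnetic field. No library differs from the others in genotype or added agent as labelled, and all come from 1 cell line. The sources used here do not give the strength of the field, how long it was applied or how old the cells were at extraction.

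The genes lie on separate chromosomes of the build mm10. Nodal (ENSMUSG00000037171) lies on chromosome 10 from 61417972 to 61425338 on the plus strand, and Lefty2 (ENSMUSG00000066652) on chromosome 1 from 180893108 to 180899103 on the plus strand. Foxh1 (ENSMUSG00000033837) lies on chromosome 15 from 76668225 to 76669948 on the minus strand. The exon lengths in the files, 2095, 2611 and 1365 bases, equal the union of exons in GENCODE M21, and no annotated gene overlaps any of them. Foxh1 is, however, only 28 bases from the end of Kifc2, which runs towards it on the other strand. The Nodal promoter is shown because Nodal is itself among the targets of the pathway. It spans 250 bases before to 50 bases after the start site in RefSeq (GRCm38.p6, chr10:61417722-61418021, plus strand), with each CAGA, the core of the SMAD binding site, or its reverse complement TCTG in capitals.
Nodal promoter: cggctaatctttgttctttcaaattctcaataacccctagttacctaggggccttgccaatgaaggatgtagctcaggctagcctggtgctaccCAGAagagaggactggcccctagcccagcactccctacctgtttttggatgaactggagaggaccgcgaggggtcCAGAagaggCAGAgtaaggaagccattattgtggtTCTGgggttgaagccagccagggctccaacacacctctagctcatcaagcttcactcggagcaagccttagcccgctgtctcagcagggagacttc
It holds 4 such matches, 3 on the plus strand (from -156 to -153, from -81 to -78 and from -72 to -69) and 1 on the minus strand (from -46 to -43). At least 1 match on either strand is present in 95.96% of 32851 promoters of the same length, so most promoters hold one. The longer SMAD motif CAGAC (49.6% of promoters) and the FOXH1 motif TGTNNATT (12.2%) had no match on either strand in this window. The window has 5 CpG sites, against a median of 7 over all promoters.

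Lefty2 has a neighbouring paralog, Lefty1, 35918 bases downstream, which is outside the table and was not analysed here. Their coding sequences, both of 1104 bases, are identical at 91.8% of positions. Of all 50-base windows of the main Lefty2 transcript, 11.6% also occur in a Lefty1 transcript, and of all 100-base windows 3.07%. The sources used here do not say how reads matching both genes were treated, so Lefty2 counts carry that uncertainty.

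The table holds only genes that the authors had chosen because they differed between the groups. The largest adjusted p in the authors' deposited table is 0.0499, and the smallest absolute log2 fold change there is 1.001. Genes with smaller changes are absent from it, so medians and ranks by size of change compare only genes selected for large changes. A call of a member is therefore no independent evidence, and neither is the direction of a group of genes in the table. Library totals recovered from the deposited values ran from 14929232 to 19176383 counts. The replicate 2 libraries stood apart in both groups. MF replicate 2 was the exposed library nearest to the controls for all 3 genes, and NC replicate 2 was the highest control for Nodal and Lefty2 and the lowest for Foxh1. The series calls the libraries biological triplicates without saying what separates them, so p-values measure the spread between these libraries. In bulk RNA, fewer cells of a type and less RNA per cell cannot be told apart.

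All 3 genes passed edgeR's quasi-likelihood test with a lower level in MF, and in none did the groups overlap. Over the 1651 named genes tested, those with a mean of at least 0.5 FPKM (counts scaled to gene length and library total), 97.5% passed in either direction and 35.4% as lower in MF. The groups did not overlap in 92.5% of the tested genes, of which the lower ones made up 34.2% and the higher ones 58.4% of all tested. Among the 599 genes with a lower fitted level in MF, 94.2% had groups without overlap. A call in either direction is thus what most rows of this table show, and a call as lower is what 35.4% show. The 3 calls therefore do not set these genes apart, and the values that follow describe how large and how even the falls were.

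Nodal, the ligand, stood at 26.5, 32.9 and 25.3 FPKM in NC replicates 1, 2 and 3, from 870, 1112 and 792 counts. It stood at 2.29, 10.03 and 3.64 FPKM in MF replicates 1, 2 and 3, from 92, 353 and 124 counts. The NC libraries were close together and all higher than every MF library, and MF replicate 2 kept the highest exposed level. The lowest NC library was 2.52 times the highest MF library. Counting error was small beside these gaps: the exact 95% interval of the lowest value, in MF replicate 1, ran from 1.85 to 2.81 FPKM, and it covers counting error alone. The group means were 28.3 ± 4.10 FPKM in NC and 5.32 ± 4.13 FPKM in MF (SD, n = 3). Nodal fell 5.31-fold (95% interval 2.24 to 12.6; log2 fold change -2.41, SE 0.56, adjusted p = 0.0153). On the scale of log2(FPKM + 0.1), the SD over the NC libraries was 0.20, below the median of 0.52 over all tested genes, while that over the MF libraries was 1.07 against a median of 0.53. Within the table, 8.12% of the tested genes had a higher NC mean than Nodal in FPKM, and 37.4% had a higher MF mean.

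Foxh1, which brings the activated SMAD complex to DNA, stood at 35.8, 20.2 and 45.5 FPKM in NC replicates 1, 2 and 3 (766, 445 and 928 counts). In MF replicates 1, 2 and 3 it stood at 6.53, 16.5 and 5.45 FPKM (171, 378 and 121 counts). NC replicate 2 was the lowest control and MF replicate 2 the highest exposed library, and these came close to each other, at a ratio of 1.23. Their counting intervals nearly met, with 18.4 to 22.2 FPKM in the control and 14.9 to 18.2 FPKM in the exposed library. The means were 33.9 ± 12.8 FPKM in NC and 9.49 ± 6.08 FPKM in MF (SD, n = 3). Foxh1 fell 3.57-fold (95% interval 1.57 to 8.12; log2 fold change -1.84, SE 0.53, adjusted p = 0.0232). This lies close to the median log2 fold change of the 599 tested genes with a negative value, -1.75, and 48.2% of those genes had a more negative value than Foxh1.

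Lefty2, a secreted antagonist of Nodal and itself a target of the pathway, stood at 44.0, 93.4 and 43.4 FPKM in NC replicates 1, 2 and 3 (1798, 3927 and 1692 counts). In MF replicates 1, 2 and 3 it stood at 1.86, 20.7 and 3.93 FPKM (93, 910 and 167 counts). Its exposed libraries spread the most of the 3 genes, with the highest MF library 11.2 times the lowest, against 4.38 for Nodal and 3.03 for Foxh1. Among the controls the highest library was 2.15 times the lowest, against 1.30 for Nodal and 2.25 for Foxh1. The lowest NC library was still 2.09 times the highest MF library. The means were 60.2 ± 28.7 FPKM in NC and 8.84 ± 10.4 FPKM in MF (SD, n = 3). Lefty2 fell 6.81-fold (95% interval 1.94 to 24.0; log2 fold change -2.77, SE 0.82, adjusted p = 0.0236). Among the 599 tested genes with a negative log2 fold change, 20.4% had a more negative value than Lefty2 and 27.5% than Nodal.

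**Figure D1:**
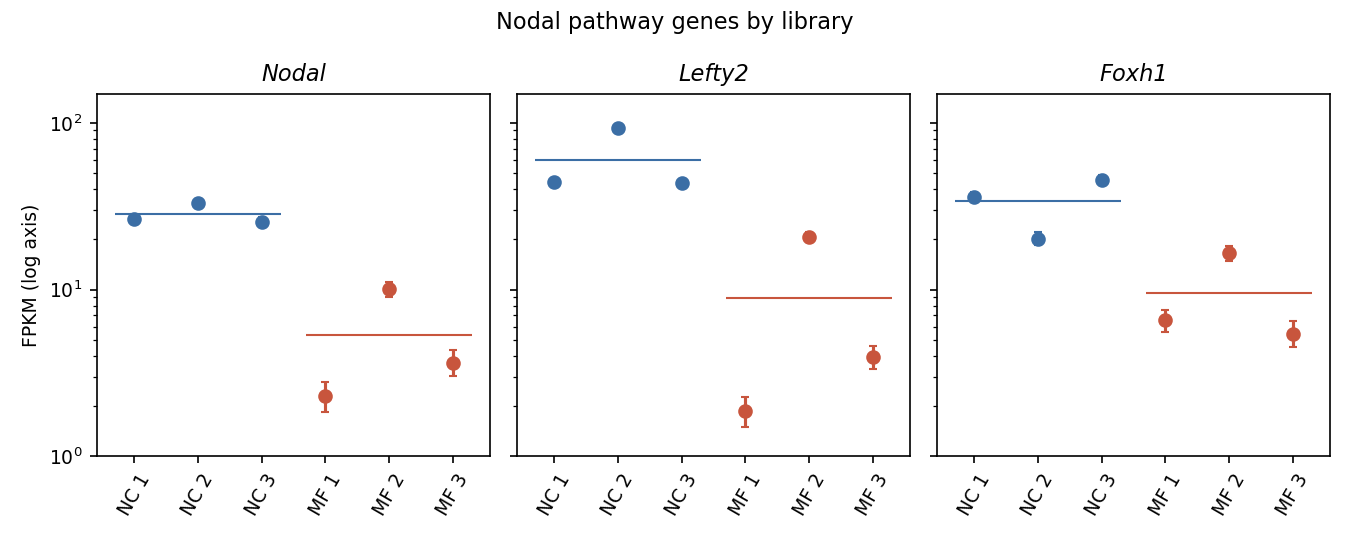
FPKM (log axis) of Nodal, Lefty2 and Foxh1 in each NC (blue) and MF (red) library; bars on points are exact 95% counting intervals and horizontal lines are group means. Every NC point lies above every MF point, MF replicate 2 is the highest exposed library for each gene, and NC replicate 2 is highest for Lefty2 (93.4 FPKM) and lowest for Foxh1 (20.2 FPKM).

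In the authors' deposited table the order by p-value differed from the order by size of the fall. In the authors' deposited table Nodal has a log2 fold change of -2.41 with an adjusted p of 7.33e-05, Foxh1 -1.84 with 0.00276, and Lefty2 -2.77 with 0.0398. Sorted by the p-values of the authors' deposited table, Nodal has rank 232, Foxh1 rank 704 and Lefty2 rank 1875 of the 2031 genes. Lefty2 thus has the largest fall of the 3 and a p-value that 92.3% of the deposited genes undercut in that table. The order by p depended on the fit: with the replicate number as a block, edgeR's adjusted p was 0.00232 for Lefty2, 0.00255 for Nodal and 0.0132 for Foxh1, which is the order by size.

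The fitted sizes depended on single libraries. Without MF replicate 2 the log2 fold changes were -3.25 for Nodal, -4.38 for Lefty2 and -2.50 for Foxh1. Without MF replicate 3 none of the 3 passed, with adjusted p-values of 0.0752, 0.0902 and 0.0903 in that order, and without MF replicate 1 Foxh1 did not pass (adjusted p = 0.0565). With adjustment over 19069 tests, the number that the authors' raw and adjusted p-values imply, edgeR's adjusted p was 0.177 for Nodal, 0.273 for Lefty2 and 0.268 for Foxh1.

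Whether the 3 genes moved by different amounts was asked with the ratio of their FPKM values (plus 0.1) inside each library, a measure that the authors' selection of single genes had not used. Nodal over Lefty2 had log2 ratios of -0.73, -1.50 and -0.78 in NC replicates 1 to 3 and of 0.29, -1.04 and -0.11 in MF replicates 1 to 3. The mean was -1.0 ± 0.43 in NC and -0.29 ± 0.68 in MF, and the groups overlapped because MF replicate 2 lay among the controls. Nodal was below Lefty2 in every NC library, and above it in MF replicate 1 alone. Nodal over Foxh1 averaged -0.19 ± 0.80 in NC and -0.92 ± 0.49 in MF (SD, n = 3). Lefty2 over Foxh1 spread the most, with 0.29, 2.20 and -0.07 in NC and -1.76, 0.33 and -0.46 in MF. NC replicate 2, where Lefty2 was high and Foxh1 low, stood far from the other controls in that ratio, and without it the difference of the means was -0.74. The differences MF minus NC were 0.71, -0.73 and -1.44 for Nodal over Lefty2, Nodal over Foxh1 and Lefty2 over Foxh1. Each had p = 0.3 in an exact two-sided permutation test, and 0.3 after Benjamini-Hochberg adjustment over the 3 ratios, where 3 libraries against 3 cannot give less than 0.1. With libraries paired by replicate number, Nodal over Lefty2 was higher in MF in all 3 pairs, by 1.02, 0.46 and 0.67, and Lefty2 over Foxh1 was lower in all 3, by -2.06, -1.87 and -0.39. Nodal over Foxh1 was lower in pairs 1 and 2 and higher in pair 3 (-1.04, -1.41 and 0.27). The exact paired permutation p was 0.25 for Nodal over Lefty2 and for Lefty2 over Foxh1 (adjusted 0.375), the smallest that 3 pairs can give, and 0.5 for Nodal over Foxh1. The design therefore cannot settle, paired or not, whether the falls differed in size.

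**Figure D2:**
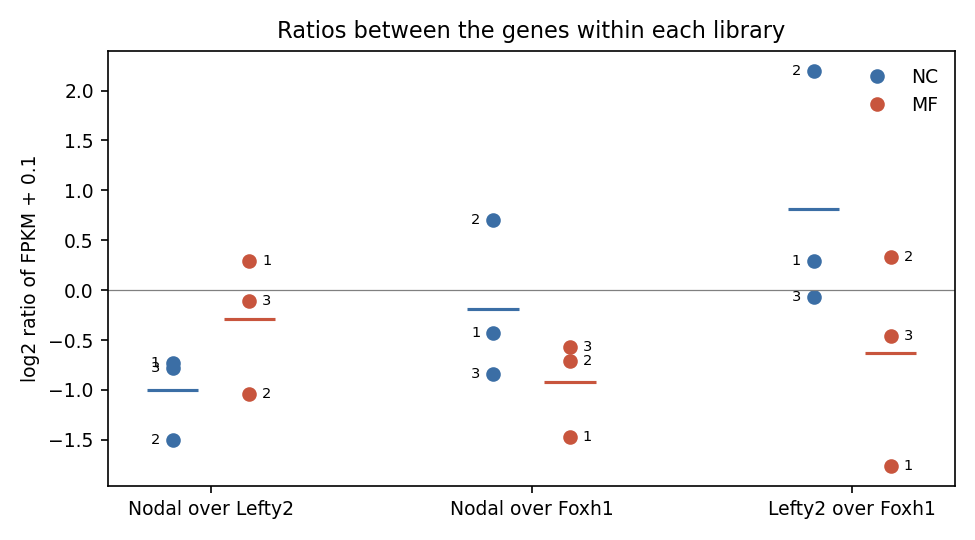
log2 ratio of FPKM + 0.1 between pairs of the 3 genes within each library, for NC (blue) and MF (red), with replicate numbers beside the points and group means as lines. The groups overlap in all 3 ratios, and NC replicate 2 stands at 2.20 for Lefty2 over Foxh1, against 0.29 and -0.07 in the other controls.

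The rest of the pathway was covered thinly. Lists of Nodal ligands and processing enzymes, receptors and co-receptors, intracellular mediators, inhibitors and targets name 43 genes, of which 7 are in the table. Of these 7 genes 4 fell and 3 rose, against 35.4% and 62.1% of all tested genes. The 4 include Nodal, Lefty2 and Foxh1, which were taken by name, so the count shows no lean of the pathway. Apart from these members only Eomes fell, while Furin, Tgfbi and Evx1 rose. None of the 6 listed receptors and co-receptors is among the 7, and Foxh1 is the 1 deposited gene of the 6 listed mediators. The other 36 listed genes were not analysed here, and nothing is said of whether they changed.

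Furin, a protease that cleaves the Nodal precursor into active ligand, stood at 11.4, 7.90 and 12.1 FPKM in NC replicates 1 to 3 and at 30.6, 12.9 and 24.7 FPKM in MF replicates 1 to 3. It rose 2.18-fold (log2 fold change 1.12, SE 0.43, adjusted p = 0.0338), opposite in direction to its substrate. MF replicate 2 was just above the highest control. The rise depended on scaling: with TMM factors the log2 fold change was 0.40 (adjusted p = 0.302) and with median-of-ratios size factors 0.02 (adjusted p = 0.974). Leaving out any 1 library other than MF replicate 2 also ended the call, with adjusted p-values between 0.0648 and 0.131.

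Of the listed targets besides Nodal and Lefty2, Eomes fell and Tgfbi and Evx1 rose. Eomes, a T-box factor of the primitive streak, stood at 3.00, 3.35 and 3.74 FPKM in NC and at 0.33, 1.80 and 0.38 FPKM in MF replicates 1, 2 and 3. It fell 4.01-fold (log2 fold change -2.00, SE 0.68, adjusted p = 0.0281), with the same MF replicate 2 above the other exposed libraries as for Nodal. The call was lost without NC replicate 1 (0.0536), NC replicate 2 (0.0507), MF replicate 1 (0.0732) or MF replicate 3 (0.0985). Tgfbi, an extracellular matrix protein induced by TGF-beta, went from 27.1 ± 11.5 to 85.2 ± 33.9 FPKM (SD, n = 3). Its log2 fold change was 1.65 (SE 0.49, adjusted p = 0.0237), and 0.95 with TMM factors (adjusted p = 0.0785). Evx1, a homeobox factor of the posterior streak, rose 6.13-fold with overlapping groups, from 0.335 ± 0.297 to 2.06 ± 1.34 FPKM. With TMM factors its adjusted p was 0.0770. The call of Tgfbi was lost without MF replicate 1 (0.0584) or 3 (0.0884), and that of Evx1 without NC replicate 1 (0.0644) or 2 (0.0562) or MF replicate 1 (0.0643) or 3 (0.0903).

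The deposited genes of the related activin, TGF-beta and BMP branches were higher in MF, as most of the table was. Of 30 listed ligands, receptors and binding proteins 13 are in the table, all listed as higher in MF by the authors, and all 11 that were tested rose, where 62.1% of all tested genes did. The other 17 listed genes were not analysed here. The median log2 fold change of the 11 was 1.94, against 1.22 over all tested genes. Bmp4, a ligand of ventral mesoderm, stood at 6.62, 5.74 and 12.3 FPKM in NC and at 37.7, 14.4 and 42.7 FPKM in MF replicates 1, 2 and 3, and rose 3.85-fold (adjusted p = 0.0199). Tgfbr1, the type I receptor of TGF-beta, rose 2.22-fold and evenly, from 7.59 ± 0.667 to 16.9 ± 2.03 FPKM (SD, n = 3). Bambi, a pseudoreceptor that dampens BMP and TGF-beta signals, rose 3.06-fold from 8.31 ± 3.81 to 25.4 ± 10.6 FPKM. Fstl1, a secreted follistatin-like protein, went from 41.4 ± 19.8 to 98.6 ± 36.4 FPKM, with 58.9 FPKM in MF replicate 2 against 54.2 in NC replicate 3. All 11 log2 fold changes stayed positive under both other scalings, but 6 of 11 passed with TMM factors and 3 with median-of-ratios size factors. Tgfbr1, Bambi and Fstl1 passed with neither. None passed without MF replicate 3, 6 passed without MF replicate 1, and all 11 passed without MF replicate 2.

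**Figure D3:**
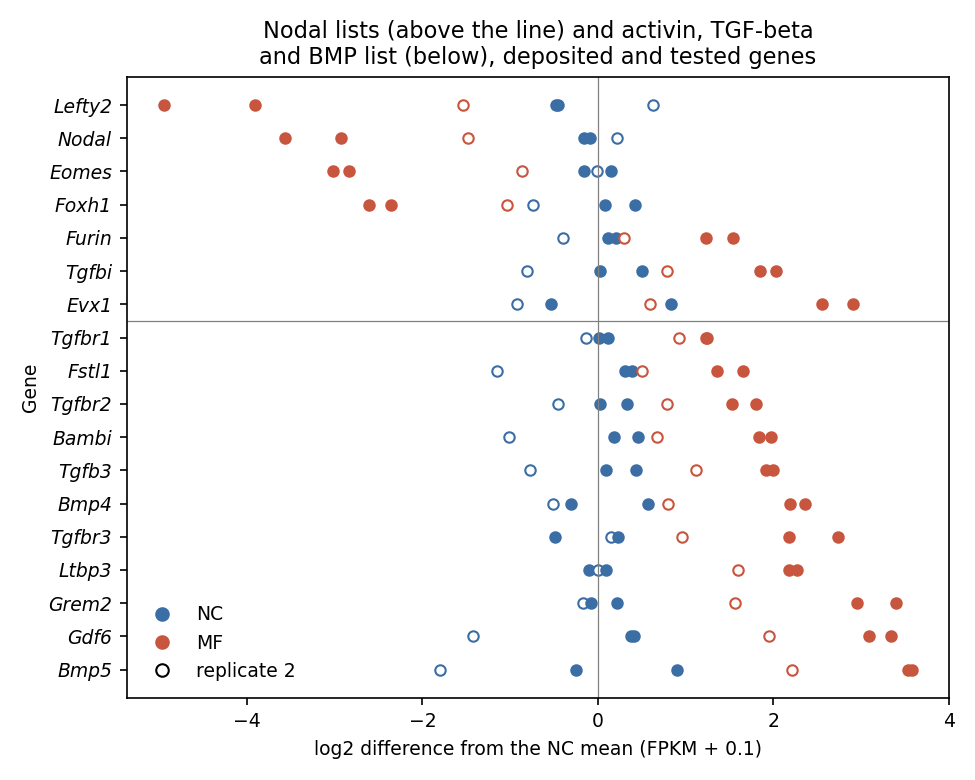
Difference of each library from the NC mean, as log2 of FPKM + 0.1, for the tested genes of the Nodal lists (above the line) and of the activin, TGF-beta and BMP list (below), with NC in blue, MF in red and replicate 2 as open circles. Lefty2, Nodal, Eomes and Foxh1 lie to the left in MF and the others to the right, and the open MF circle is nearest to the controls in each gene.

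Cell type markers moved alongside. Pluripotent cells express Nodal, Lefty2 and Foxh1, and the 5 deposited genes of 20 listed pluripotent markers all fell, with a median log2 fold change of -2.39, where 35.4% of all tested genes fell. Of the 5, 1 passed without NC replicate 2 (median -1.50), 3 passed without MF replicate 1 and none passed without MF replicate 3. The summed level of the 5 ran from 295 to 807 FPKM in NC and from 71.6 to 203 FPKM in MF, highest in replicate 2 of each group, as for Lefty2. Utf1, a chromatin factor of pluripotent cells, went from 209 ± 110 to 40.1 ± 39.9 FPKM and Klf2, a naive-state factor, from 183 ± 122 to 56.8 ± 21.7 FPKM (SD, n = 3). Dnmt3b, a de novo DNA methyltransferase listed as an epiblast marker, stood at 52.1, 14.2 and 48.7 FPKM in NC and at 10.2, 23.5 and 8.30 FPKM in MF, so its groups overlapped. Its adjusted p was 0.0371, and 0.0677 with the replicate number as a block. NC replicate 2 was thus the highest control for pluripotent markers and Lefty2, and the lowest for Dnmt3b and Foxh1. All 12 tested cardiomyocyte markers of 18 listed rose, with a median log2 fold change of 3.08, where 62.1% of all tested genes rose. Of these, 9 passed with TMM factors, 7 with median-of-ratios size factors and 3 without MF replicate 3, and the groups overlapped in 3 of the 12. The summed level of the 14 deposited ones ran from 37.3 to 78.8 FPKM in NC and from 145 to 720 FPKM in MF. The sum was lowest in replicate 2 of each group, with Actc1 and Myl7 the highest of the 14 in both group means. Most of the 14 were lowest in MF replicate 2, but Myl2, Tnni3 and Pln were highest there, at 15.6, 8.19 and 1.70 FPKM. Actn2 and Myl2 were highest among the controls in NC replicate 2. No deposited marker of these lists was at 0 in every library, and Pln was at 0 in NC replicates 1 and 2. Myl2, Tnni3, Actn2 and Pln were named after their values were seen. Of the 12 listed definitive endoderm markers, 2 are deposited, and both rose with the recovered totals, but neither passed with TMM or median-of-ratios factors or without MF replicate 3, and the groups overlapped in Gata6. The part of any of these cell types in the falls of Nodal, Lefty2 and Foxh1 was not tested. Without both replicate 2 libraries the log2 fold changes were -3.13 for Nodal, -3.92 for Lefty2 and -2.76 for Foxh1, larger than with all libraries.

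Likeness to each gene was measured as the root mean square difference over the 6 libraries of log2(FPKM + 0.1), centred per gene, from 1516 other named genes. The nearest to Nodal were Slc7a3, a cationic amino acid transporter (0.22 log2 units), Slc27a2, a fatty acid transporter (0.23), Xlr5b, which has close copies (0.23), Zscan10, a zinc finger factor of embryonic stem cells (0.25), and Dppa3, a marker of naive and germ cells (0.26). Slc7a3 stood at 16.9, 17.3 and 16.7 FPKM in NC and at 1.60, 8.78 and 2.65 FPKM in MF, with the flat controls and the raised MF replicate 2 of Nodal. Nearest to Lefty2 were Epp13 (0.20), the autophagy receptor gene Calcoco2 (0.21), Fkbp6, a gene of meiosis and the piRNA pathway (0.24), Ccdc172 (0.24) and the reproductive homeobox gene Rhox1 (0.26). Calcoco2 stood at 36.8, 82.7 and 33.1 FPKM in NC and at 1.74, 14.1 and 4.25 FPKM in MF, so NC replicate 2 was raised as for Lefty2. Foxh1 had more distant neighbours, which were Chit1 (0.28), the aldose reductase gene Akr1b3 (0.35), Ramp3 (0.38), Dnmt3b (0.41) and Ggct (0.41). Ramp3, a partner of the calcitonin receptor family, stood at 16.7, 8.82 and 10.4 FPKM in NC and at 1.59, 6.04 and 1.83 FPKM in MF, lowest among the controls in replicate 2 as Foxh1 was. The 3 pathway genes were not each other's nearest genes: among 1516, Lefty2 was number 116 and Foxh1 number 157 in likeness to Nodal, at 0.59 and 0.65 log2 units. Lefty2 and Foxh1 were 1.18 log2 units apart, with Foxh1 number 249 in likeness to Lefty2 and Lefty2 number 447 in likeness to Foxh1. The median difference over all compared genes was 2.12 log2 units from Nodal, 2.64 from Lefty2 and 1.74 from Foxh1. The measure takes in the difference between NC and MF on which the table was selected, and most of the table rose. Falling genes thus tend to lie nearer to these 3 than most of the table does, so the ranks cannot show a particular likeness.

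**Figure D4:**
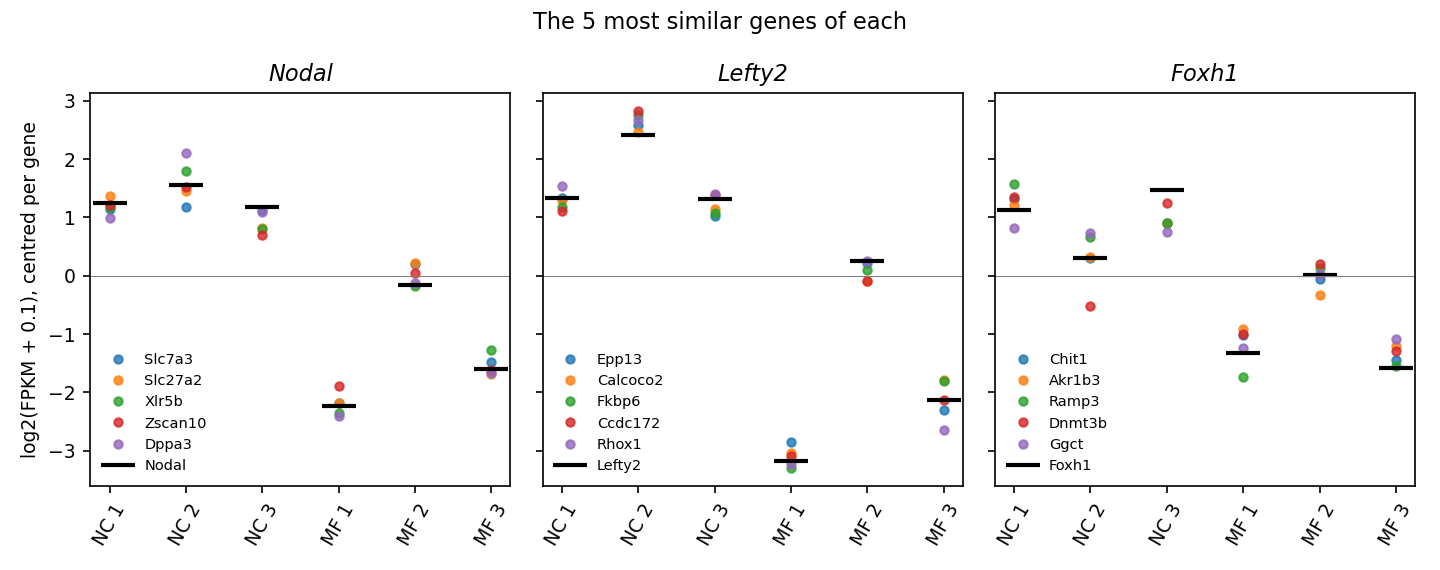
log2(FPKM + 0.1) in each library after subtracting each gene's mean over the 6 libraries, for Nodal, Lefty2 and Foxh1 (black bars) and the 5 genes most like each (coloured points). The genes near Lefty2 share its high NC replicate 2, and those near Foxh1 have their lowest control in NC replicate 2.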

How the data were processed

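The 3 NC and 3 MF libraries held poly-A RNA, per the labels' protocols. The submitters' processing notes name HISAT2 2.0.5, featureCounts and the build mm10, and the sources used here do not say whether counting used strand. Per the file headers, the authors deposited for each of 2031 genes a raw count, an FPKM value, a normalized signal (the count divided by 1 constant per library), and their own comparison (p-value, adjusted p-value and log2 fold change). Count, gene length and FPKM gave each library's total, which served as library size. The deposited genes take 5.68% to 10.4% of these totals. The 48 rows without a gene name (0.0134% to 0.0390% of the totals) and 332 named genes with a mean below 0.5 FPKM were left out, and 1651 were tested.

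The main test was edgeR 4.0.16 (R 4.3.3), quasi-likelihood, two-sided, with group as the only term and Benjamini-Hochberg adjustment at 0.05 over the 1651 genes. Folds are 2 to the power of its log2 fold change. Alternatives were limma 3.58.1, DESeq2 1.42.0, other scalings, filters and pseudocounts, a replicate block, adjustment over the 19069 recovered tests, and leaving out libraries. Leaving out both replicate 2 libraries was added after the data had been seen. NC and MF libraries that share a number deviated together (correlations over genes of 0.40, 0.54 and 0.35 after removing group means), so the numbers were taken to pair the libraries. However, NC replicate 3 and MF replicate 1 reached 0.54, above the same-numbered pairs 1 and 3. These values thus do not settle how replicates 1 and 3 pair. No 2 libraries agreed within sampling noise. The test code was tested on simulated data.

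The members, lists and tests were chosen with earlier results of these data known. Named genes were the 3 members, all deposited genes of the Nodal lists, up to 4 of each other list by mean level (some items under these rules are not reported here), and the 5 genes most like each member without predicted gene models. Promoters came from RefSeq (GRCm38.p6), where 1 of the 3 members matched, and coding sequences from GENCODE M21, compared with biopython 1.88. Permutation tests used scipy 1.17.1.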

Additional observations from a re-analysis of the deposited data

How the results depend on the processing

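Nodal, Lefty2 and Foxh1 were lower in MF under every alternative that was run. Leaving out 1 library at a time moved the log2 fold change between -3.25 and -2.05 for Nodal, between -4.38 and -2.29 for Lefty2 and between -2.50 and -1.56 for Foxh1, and over all tested genes it moved the calls between 12 and 996 higher and between 0 and 582 lower. The lowest counts came without MF replicate 3, where 858 genes had an unadjusted p under 0.05. Adjustment over the 19069 recovered tests left the log2 fold changes at -2.41, -2.77 and -1.84 and ended all 3 calls. It gave 0 genes higher and 0 lower by edgeR, with 1613 at an unadjusted p under 0.05, while DESeq2 over the 1651 tested genes called 1052 higher and 599 lower. Only deposited genes could be ranked in that adjustment, which can make its adjusted p too large for the p-values as given. Those p-values come from a fit to the selected genes alone. How they would change in a fit over all genes was not tested.

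Scaled by the recovered totals, 1026 genes were called higher and 584 lower. TMM factors called 291 higher and 589 lower, and median-of-ratios size factors 158 and 507. These scalings are computed from the selected genes and shifted the median log2 fold change of all tested genes by -0.70 and -1.06. They gave log2 fold changes of -3.05 and -3.31 for Nodal, -3.41 and -3.64 for Lefty2 and -2.42 and -2.66 for Foxh1. A filter at 2 FPKM, with fewer genes tested, called 611 higher and 369 lower. With the replicate number as a block the log2 fold changes were -2.67, -3.38 and -1.96 and all 3 calls stood. Among 52 other named genes the block ended 2 calls, Dnmt3b and Myl7, and none reversed under any alternative. The log2 ratios between the 3 genes kept their direction throughout, with adjusted p of at least 0.3. Between 92 and 3927 counts lie behind each value of the 3 genes.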

Other observations

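Foxh1 and Nodal each have an adjacent gene in the table that also fell in MF, chosen here for its position after its values were seen. Kifc2, which ends 28 bases from Foxh1, stood at 4.89, 2.72 and 5.35 FPKM in NC and at 1.37, 2.39 and 1.61 FPKM in MF replicates 1, 2 and 3. It fell 2.41-fold (log2 fold change -1.27, SE 0.47, edgeR adjusted p = 0.0316), and like Foxh1 it was lowest among controls in NC replicate 2. Pald1, 34441 bases from Nodal, fell 2.08-fold from 23.0 ± 7.18 to 11.1 ± 2.88 FPKM. Both calls were lost without NC replicate 1, MF replicate 1 or MF replicate 3, among others. In the table as a whole, 36.8% of genes are lower in MF.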
